A study of Drosophila melanogaster with 6 samples.

Results

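Odorant-binding proteins are small secreted proteins with a hydrophobic pocket that carries odorants, pheromones and other lipid-like molecules. In Drosophila, support cells of olfactory and taste sensilla release them into the fluid around the sensory neurons, and lush, the best known of them, is needed for the response to a male pheromone. Many members of the family are also made outside the sensory organs, among them proteins of the male seminal fluid. Most have 3 disulphide bridges, while the Plus-C proteins have extra conserved cysteines, the Minus-C proteins have lost some, and a few (called dimers) hold 2 such domains in tandem.

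The members are the genes whose symbol in the platform's annotation starts with Obp and a digit and is the only symbol of a probe set. Of 11982 genes with such a probe set on the array, 47 are members, and 50 probe sets measure them. The brightest probe set by the mean of 6 arrays stands for each gene. All 47 matched RefSeq by gene identifier, which places 26 on chromosome arm 2R, 11 on 3R, 6 on X, 2 on 2L and 2 on 3L. RefSeq names 51 genes of this form, and the other 4 (Obp50b, Obp50c, Obp57d and Obp83a) had no probe set of their own symbol alone and are not counted as members. 4 further probe sets that name an Obp beside another gene, for Obp57d with Cpr57A and for Obp50b with Obp50c, were left aside.

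The samples are whole adult Drosophila melanogaster females of 2 stocks, each profiled on 3 one-colour Affymetrix arrays. The mutant stock, Calment1/4, was isogenized in the CS10 background, and the wild type, CanS, is Canton-S. Each sample pooled 30 to 35 flies raised at 25 °C, the titles call the samples biological replicates, and the age of the flies is not stated in the sources used here. Mutation and stock background change together, so the genotype effect and other differences between the stocks cannot be told apart. The 11 measured eggshell and ovary markers were all above floor level, and 11 of 14 measured markers of the male accessory gland were at floor level.

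Expression is given on the log2 scale, with 1 value for each probe set and array. A gene was called bright where its mean of 6 arrays reached the median of all 18769 tested probe sets (5.88), floor-level where it lay below their 33rd percentile (4.48), and dim between the 2. By this rule 20 members were bright, 10 were dim and 17 were floor-level. Probe sets differ in how well they hybridise, so the order of members is an order of array signal and not of mRNA amount. Whether a floor-level gene was expressed at all was not judged.

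**Figure D1:**
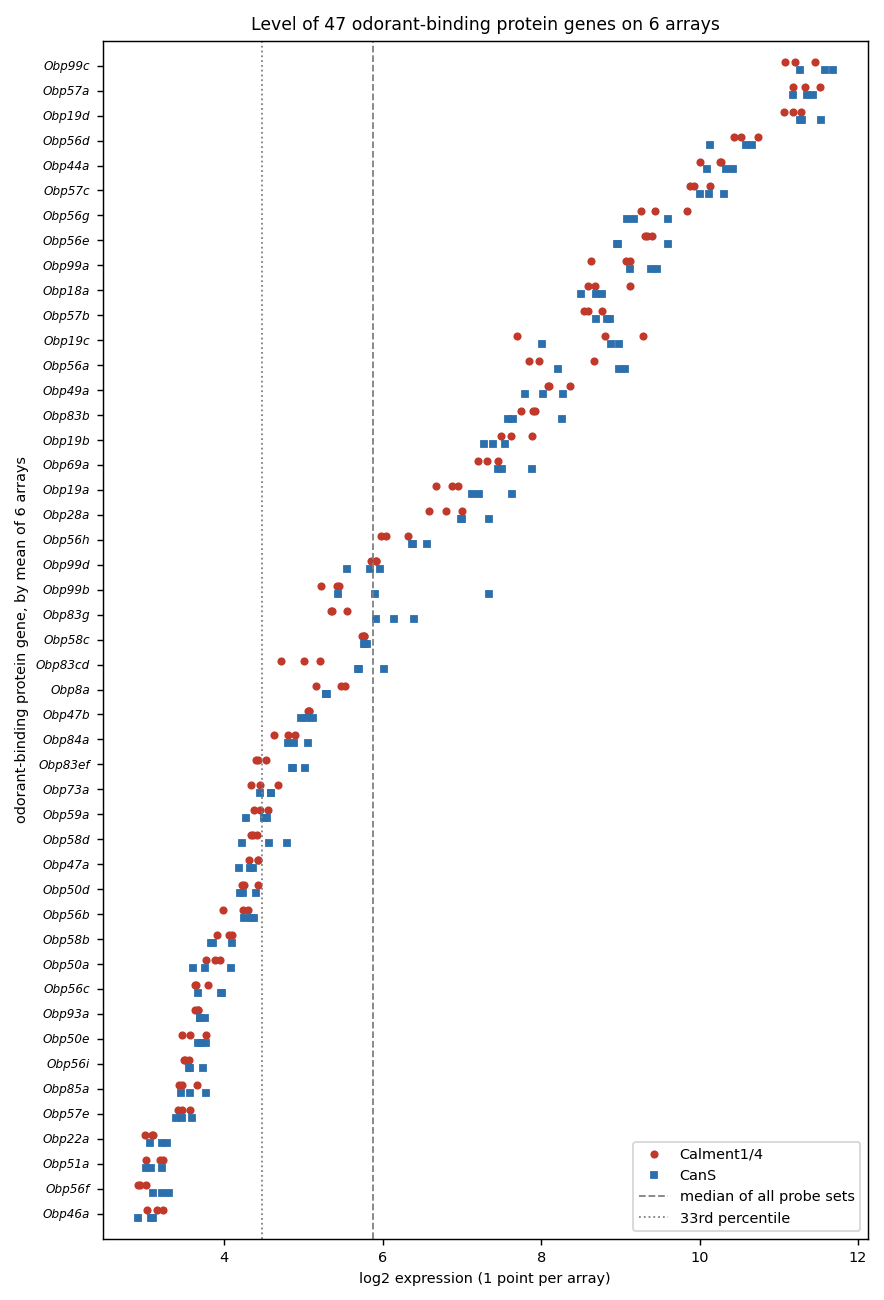
Log2 expression of the 47 odorant-binding protein genes (x axis), with 1 row per gene ordered by the mean of 6 arrays, 1 circle per Calment1/4 array above and 1 square per CanS array below. The dashed line is the median of all tested probe sets (5.88) and the dotted line their 33rd percentile (4.48), which divide 20 bright, 10 dim and 17 floor-level members.

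By subclass the levels were as follows, as a description without a test. Of the 11 Plus-C members, 8 were floor-level, 2 were dim (Obp58c and Obp47b) and 1 was bright, Obp49a. Of the 6 Minus-C members, 3 were bright (Obp99c, Obp44a and Obp99a), 3 were dim (Obp99d, Obp99b and Obp8a) and 0 were floor-level. Both dimer members, Obp83cd and Obp83ef, were dim. The other 28 members were 16 bright, 3 dim and 9 floor-level. Of 7 members known as seminal fluid proteins in males, 4 were floor-level in these females (Obp56i, Obp22a, Obp51a and Obp56f), Obp8a was dim, and Obp56g and Obp56e were bright. The highest means belonged to Obp99c (11.38, above 97.1% of tested probe sets), Obp57a (11.33) and Obp19d (11.27), and the lowest to Obp56f and Obp46a (3.08 each). Near the upper limit, Obp56h stood at 6.28 just inside, and Obp99d at 5.84, Obp99b at 5.79 and Obp83g at 5.78 just outside. Near the lower limit, Obp73a stood at 4.51 and Obp59a, which serves humidity sensing, at 4.45.

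The comparison of Calment1/4 with CanS asks which of these genes differ in level between mutant and wild-type females. None of the 47 members passed an adjusted p of 0.05 in limma, where 0.464% of all tested probe sets did, and 9 reached an unadjusted p under 0.05, against 7.67% of all. All 9 lay lower in Calment1/4 (3.96% of all probe sets did so in that direction, and 3.71% in the other): Obp99a, Obp69a, Obp19a, Obp28a and Obp56h among the bright members, Obp83g, Obp83cd and Obp83ef among the dim ones, and Obp56f at floor level. The 3 Calment1/4 arrays lay apart from the 3 CanS arrays for 9 members, against 12.6% of all probe sets. These 9, which are not all the same genes, were all lower in Calment1/4, a pattern that 6.27% of all probe sets had, and 6.36% had the opposite one. They were Obp69a, Obp19a and Obp56h among the bright members, Obp83g, Obp83cd and Obp83ef among the dim ones, and Obp93a, Obp56i and Obp56f at floor level. Without regard to size, 29 of 47 differences were below 0, against 49.8% over all probe sets, and 18 were above. By level, the share below 0 was 60% of the bright members (42.8% of all bright probe sets) and 70% of the dim ones (55.2% of all dim probe sets). For the floor-level members it was 58.8% (57.5% of all floor-level probe sets). In whole flies, fewer cells of a type and less RNA per cell cannot be told apart.

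The median log2 difference over the 47 members was -0.080, against 0.00054 over all tested probe sets, with a range of -0.86 to 0.26. It was -0.14 over the 20 bright members (0.018 over all bright probe sets), -0.096 over the 10 dim members (-0.016 over all dim ones) and -0.057 over the 17 floor-level members (-0.019 over all floor-level ones). Around each gene's mean, the median of the bright members was 0.075, -0.028 and -0.13 on Calment1/4 replicates 1 to 3, against -0.072, 0.052 and 0.22 on CanS replicates 1 to 3. The groups overlapped, since Calment1/4 replicate 1 stood above CanS replicates 1 and 2. The median of the dim members was -0.097, -0.034 and -0.18 on the Calment1/4 arrays, against 0.037, 0.099 and 0.051 on the CanS arrays, without overlap. The 10 dim members include Obp83cd, Obp83ef and Obp83g, whose own groups lay apart, so this is no separate result. The same median over all dim probe sets was not taken per array. CanS replicate 3 was the highest array for 9 of the 20 bright members and Calment1/4 replicate 1 for 6. Calment1/4 replicate 3 was the lowest for 8 and CanS replicate 1 for 4, so several members shared their high and low arrays. The same counts over all bright probe sets were not taken. No member differed by 2-fold. For 43 members the 95% interval of the difference in array signal, taken gene by gene, excluded a 2-fold change in either direction. All 17 floor-level members are among these 43. Whether they were expressed at all was not judged, so for them the interval does not exclude a 2-fold change in mRNA. The other 4 were Obp83cd, Obp83g, Obp56a and Obp99b, whose intervals reached a 2-fold lower level in Calment1/4.

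**Figure D2:**
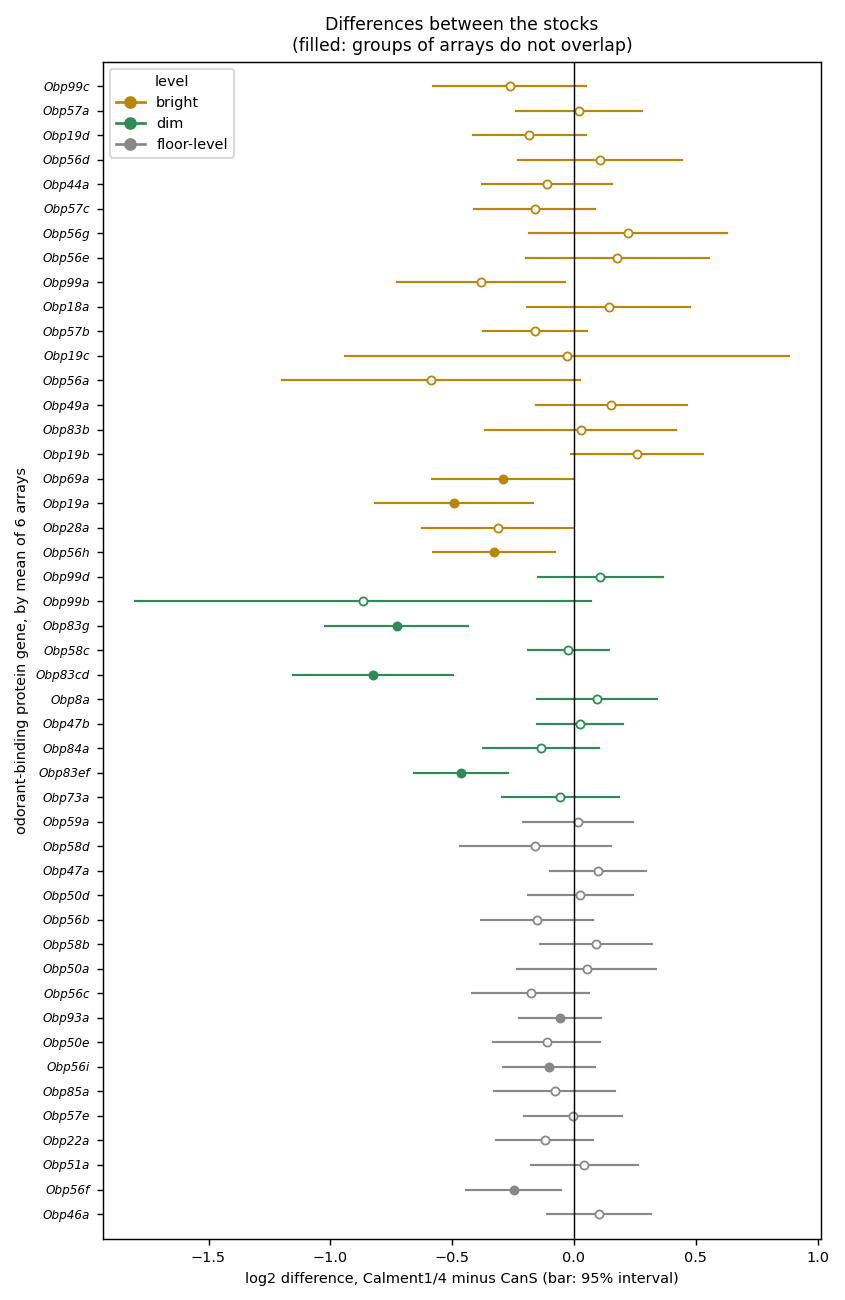
Log2 difference of each member, Calment1/4 minus CanS (x axis, points), with its 95% interval from limma (bars) and 1 row per gene ordered by level. Filled points are the 9 members whose 2 groups of arrays did not overlap, all to the left of 0, and Obp83cd (-0.82) and Obp83g (-0.73) stand farthest to the left among them.

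The smallest p-values belonged to 3 dim genes that lie side by side on 3R, with no other protein-coding gene between them: Obp83cd, Obp83ef and Obp83g. Obp83cd encodes a protein with 2 odorant-binding domains and had log2 values of 5.21, 5.01 and 4.71 in Calment1/4 females, against 5.68, 5.70 and 6.02 in CanS females. Obp83ef, its neighbour, encodes another 2-domain protein and had 4.52, 4.43 and 4.40 in Calment1/4 females, against 4.86, 4.87 and 5.02 in CanS females. Obp83g had 5.36, 5.55 and 5.35 in Calment1/4 females, against 6.14, 5.91 and 6.39 in CanS females. In each of the 3 genes every Calment1/4 array lay below every CanS array. The differences were -0.82 (SE 0.14, adjusted p = 0.0686) for Obp83cd, -0.73 (SE 0.13, adjusted p = 0.0696) for Obp83g and -0.46 (SE 0.084, adjusted p = 0.0742) for Obp83ef in limma, and none passed the threshold. As ratios, Calment1/4 was 1.77-fold lower for Obp83cd, 1.66-fold lower for Obp83g and 1.38-fold lower for Obp83ef. The 95% intervals of the differences ran over -1.15 to -0.49, -1.02 to -0.43 and -0.66 to -0.27 in the same order.

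These 3 were also the members under an adjusted p of 0.10, which 0.906% of all probe sets reached. In Calment1/4, Obp83ef averaged 4.45 ± 0.064 (SD, n = 3), under the 33rd percentile of all probe sets, and 4.91 ± 0.090 (SD, n = 3) in CanS. Obp83cd averaged 4.98 ± 0.25 in Calment1/4 and 5.80 ± 0.19 in CanS, and Obp83g averaged 5.42 ± 0.11 in Calment1/4 and 6.15 ± 0.24 in CanS, with the same n. The annotated spans of Obp83cd and Obp83ef overlap at their ends in RefSeq, and where the probes of the 2 sets lie was not examined. The 3 genes were singled out as a group after their values were seen.

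The genes on either side, also chosen after the values were seen, were set beside them. Gasp, a chitin-binding protein gene that precedes Obp83cd, had a difference of -0.49 with overlapping groups (8.72, 8.63 and 8.42 in Calment1/4, against 9.31, 8.46 and 9.46 in CanS). Vha14-2, the gene next to Obp83g, differed by 0.091. Over the 5 genes on each side the differences ran from -0.49 to 0.23, and all 10 had overlapping groups. A difference between the Obp genes and these neighbours was not tested.

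**Figure D3:**
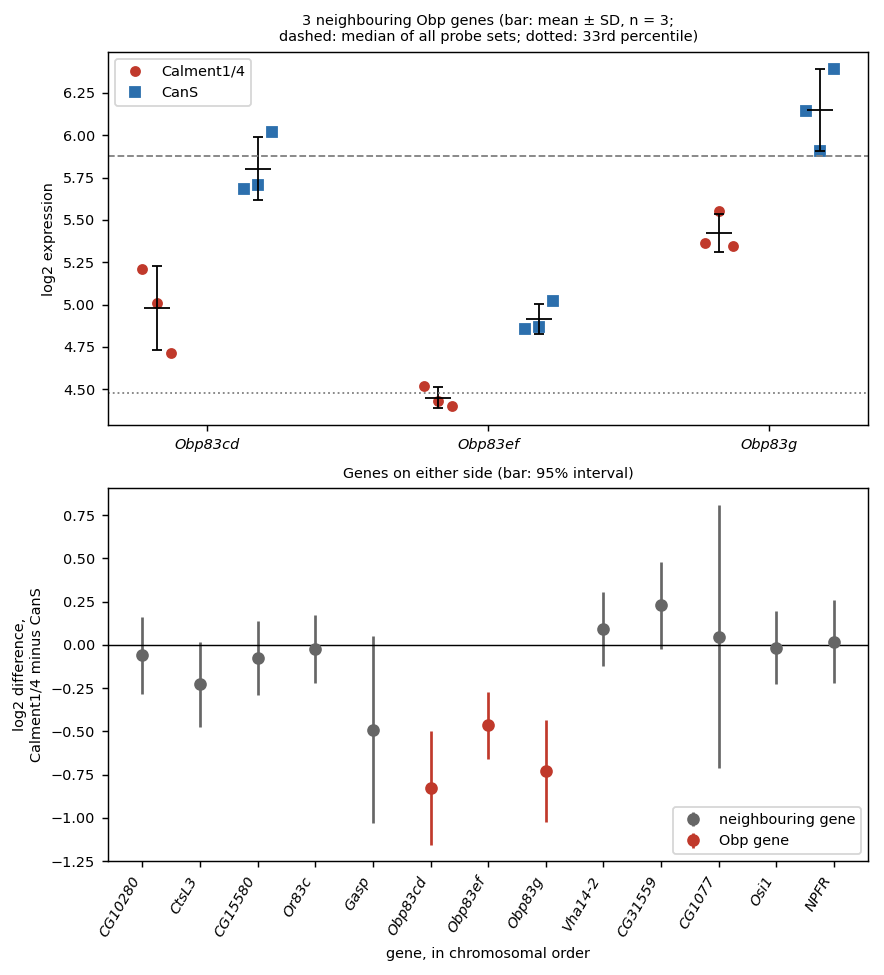
Upper panel: log2 expression of Obp83cd, Obp83ef and Obp83g on each array (y axis; circles Calment1/4, squares CanS, black bars mean ± SD, n = 3 each), where the Calment1/4 arrays lie below the CanS arrays for all 3 genes. Lower panel: log2 difference, Calment1/4 minus CanS, with 95% intervals, for these genes and the 5 measured genes on each side in chromosomal order. The 3 Obp genes stand at -0.82, -0.46 and -0.73 and their neighbours between -0.49 and 0.23.

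The call on these 3 genes turned on the arrays, the normalization, the variance model and the covariate used. Without Calment1/4 replicate 1, Obp83cd (-0.94, adjusted p = 0.0177 in limma) and Obp83ef (-0.50, adjusted p = 0.0406) passed, when 1.5% of all probe sets did. Without any other single array none of the 3 passed (adjusted p from 0.0510 to 0.351). With array weights all 3 passed (adjusted p = 0.0124 for Obp83cd, 0.0174 for Obp83ef and 0.0326 for Obp83g), when 1.8% of all probe sets did. At least 1 of them also passed with centring of the arrays on their medians (0.581% of all probe sets passed), with trended and robust variances (0.495%), without Calment1/4 replicate 1 and CanS replicate 3 together (1.21%) and with an ovary covariate (1.11%). Their differences ran from -0.94 to -0.41 over the settings. The constant sign is no separate support, since every Calment1/4 array lay below every CanS array. Leaving out or weighting arrays could therefore not reverse it, and another variance model leaves the difference as it is.

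**Figure D4:**
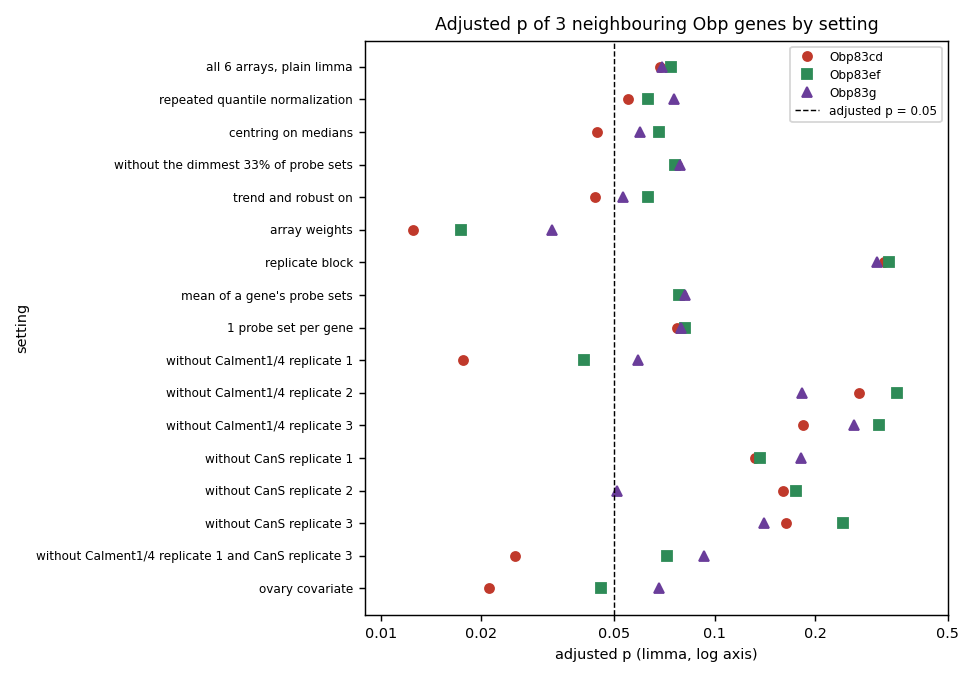
Adjusted p from limma (x axis, log scale) of Obp83cd (circles), Obp83ef (squares) and Obp83g (triangles) under each setting (rows), with the threshold of 0.05 as a dashed line. With all 6 arrays in the plain comparison (top row) the 3 genes stand between 0.0686 and 0.0742, to the right of the threshold, and with array weights all 3 stand to its left.

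Marker lists of other tissues were set beside these values. Around each gene's mean, the median of 5 haemocyte markers lay within -0.36 to -0.021 on the Calment1/4 arrays and within 0.012 to 0.34 on the CanS arrays. That of 9 gut markers lay within -0.29 to -0.075 on Calment1/4 arrays and 0.022 to 0.32 on CanS arrays. For 8 fat body markers the range was -0.27 to -0.082 on Calment1/4 arrays, against 0.13 to 0.21 on CanS arrays. Each of these 3 lists stood lower on every Calment1/4 array than on any CanS array. The summed level of the haemocyte markers, on a linear scale, was 322 to 426 in Calment1/4 and 494 to 560 in CanS, with 1 of the 5 at floor level and the groups apart. That of the gut markers was 48440 to 52410 in Calment1/4 and 54720 to 59270 in CanS, with none at floor level. The median of 3 eye markers stood at 0.0023 to 0.15 on Calment1/4 arrays, against -0.25 to 0.028 on CanS arrays, so that list was mostly higher in Calment1/4 but overlapped, as did its sums (11780 to 13520 in Calment1/4, 10440 to 12320 in CanS). The fat body sums, with none of the markers at floor level, overlapped (47410 to 54950 in Calment1/4, 52560 to 63390 in CanS). The 8 measured olfactory neuron and support cell markers overlapped as well, with sums of 453 to 540 in Calment1/4 and 494 to 670 in CanS, and 3 of the 8 at floor level. With the ovary covariate in the fit the differences were -0.68 for Obp83cd, -0.41 for Obp83ef and -0.68 for Obp83g. Whether any of these marker shifts has a part in the lower Obp83 values was not tested.

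Obp19a, a bright member that is made in the antenna, had log2 values of 6.87, 6.95 and 6.67 in Calment1/4 females, against 7.21, 7.13 and 7.63 in CanS females, and all Calment1/4 arrays were lower (-0.49, SE 0.14, adjusted p = 0.312). The second probe set of Obp19a also had groups that did not overlap, with a difference of -0.36. Obp28a, one of the most abundant proteins of the antennal sensillum fluid, had 6.80, 7.00 and 6.59 in Calment1/4 females, against 6.98, 7.00 and 7.34 in CanS females. Its difference was -0.31 (SE 0.14, adjusted p = 0.644), and Calment1/4 replicate 2 lay above CanS replicate 1. Obp69a, an antennal protein first described as PBPRP-1, had 7.45, 7.20 and 7.31 in Calment1/4 females, against 7.51, 7.46 and 7.88 in CanS females. Its groups did not overlap, but Calment1/4 replicate 1 lay just under CanS replicate 2 (-0.29, SE 0.13, adjusted p = 0.651). Obp83b, known as OS-E and made in pheromone-sensitive sensilla, stood at 7.93, 7.89 and 7.74 in Calment1/4 females, against 7.57, 7.64 and 8.26 in CanS females. Its Calment1/4 arrays lay inside the range of the CanS arrays and the difference was 0.027, with a 95% interval of -0.37 to 0.42. Obp84a, a dim antennal member, stood at 4.62, 4.90 and 4.81 in Calment1/4 females, against 4.80, 4.88 and 5.05 in CanS females, and its groups overlapped.

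Obp19b, which takes part in the taste of amino acids, had 7.88, 7.61 and 7.50 in Calment1/4 females, against 7.28, 7.39 and 7.54 in CanS females. Its difference was 0.26 (SE 0.12, adjusted p = 0.670), the highest of all members with 6 arrays, but CanS replicate 3 exceeded Calment1/4 replicate 3. It was 0.15 without Calment1/4 replicate 1, where Obp19c was highest, and 0.37 (adjusted p = 0.0877) with the ovary covariate, where Obp56g was highest. Obp49a, which binds bitter compounds and lets them suppress sweet-sensing neurons, had 8.36, 8.09 and 8.09 in Calment1/4 females, against 8.02, 7.79 and 8.27 in CanS females. Its difference was 0.15 (SE 0.13, adjusted p = 0.925), with overlapping groups. It was 0.036 without CanS replicate 2 and 0.27 without CanS replicate 3.

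The 4 Obp19 genes lie side by side on X without another protein-coding gene between them and did not share a direction, with Obp19a at -0.49 and Obp19b at 0.26. Obp19d, or PBPRP-2, had 11.28, 11.18 and 11.07 in Calment1/4 females, against 11.29, 11.27 and 11.53 in CanS females, and its groups overlapped (-0.18, SE 0.10, adjusted p = 0.790). The probe set of Obp19d is of a type that can match several transcripts, so its level may hold more than 1. Obp19c differed more within the groups than between them, with 7.70, 9.29 and 8.81 in Calment1/4 females, against 8.88, 8.98 and 8.01 in CanS females. Its lowest arrays were Calment1/4 replicate 1 and CanS replicate 3, and the difference of -0.029 between the groups had a 95% interval of -0.94 to 0.88. Over single arrays left out the difference ran from -0.37 (without Calment1/4 replicate 2) to 0.42 (without Calment1/4 replicate 1). The same arrays were lowest on the eggshell and ovary markers, whose median around each gene's mean was -0.35, 0.32 and 0.34 on Calment1/4 replicates 1 to 3, against 0.084, -0.0077 and -0.56 on CanS replicates 1 to 3. With these markers as a covariate the difference was -0.50 (SE 0.16, adjusted p = 0.263 in limma) and the call did not change. The other probe set of Obp19c was floor-level (mean 4.08) and did not follow the first, with 3.86, 3.92 and 3.99 in Calment1/4 and 4.06, 4.30 and 4.36 in CanS.

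**Figure D5:**
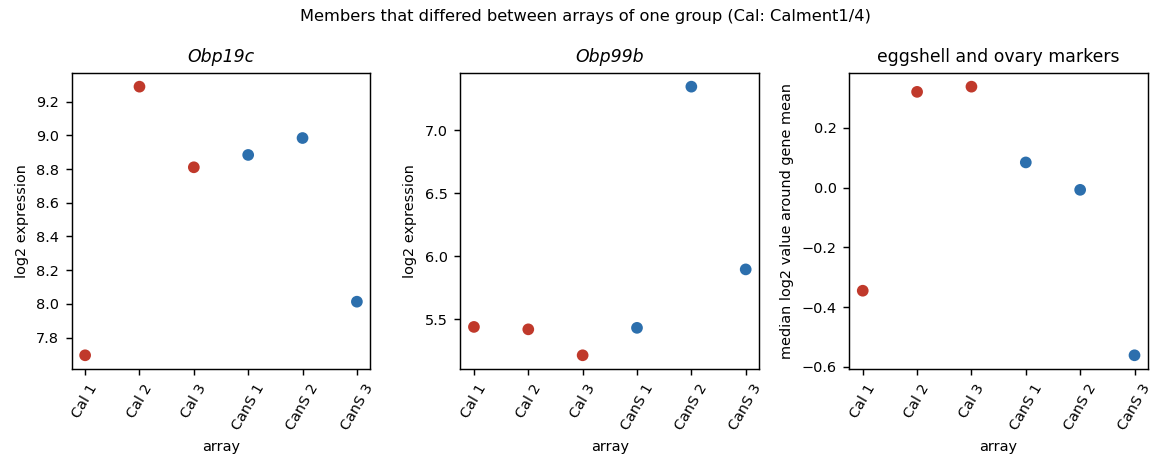
Log2 expression of Obp19c (left) and Obp99b (middle) and the median of 11 eggshell and ovary markers around each gene's mean (right), for each of the 3 Calment1/4 arrays and then each of the 3 CanS arrays (1 point per array). Obp19c was lowest on Calment1/4 replicate 1 and CanS replicate 3, as the markers were, and Obp99b was highest on CanS replicate 2 (7.34).

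The Obp99 genes, all Minus-C proteins, were spread from bright to dim. Obp99c, the brightest member, had 11.46, 11.20 and 11.08 in Calment1/4 females, against 11.26, 11.58 and 11.68 in CanS females, with overlapping groups (-0.26, SE 0.14, adjusted p = 0.756). Obp99a had 8.63, 9.12 and 9.08 in Calment1/4 females, against 9.12, 9.46 and 9.39 in CanS females. For Obp99a only Calment1/4 replicate 2 reached into the range of CanS, and its difference was -0.38 (SE 0.15, adjusted p = 0.568). Obp99d, a dim member, differed by 0.11 with overlapping groups. Obp99b, also called tsx and known for male-enriched expression in the fat body of the head, had the lowest difference of all 47 (-0.86, SE 0.41, adjusted p = 0.689). Its values were 5.44, 5.42 and 5.22 in Calment1/4 females, against 5.43, 7.34 and 5.90 in CanS females, with overlapping groups. The difference rested on CanS replicate 2, which stood at 7.34 when the next highest array was at 5.90, and without that array it was -0.31. On CanS replicate 2 the male accessory gland markers summed to 308 on the linear scale, within the range of 279 to 313 over all 6 arrays, and 11 of these 14 markers were at floor level. The fat body markers had their highest median on that array, 0.21 around each gene's mean. Their summed level was highest on CanS replicate 1, where Obp99b stood at 5.43 (63390, against 63150 on CanS replicate 2). A link between these markers and Obp99b was not tested.

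The Obp56 genes on 2R ranged from bright to floor-level, with differences on both sides of 0. Obp56a had 8.66, 7.98 and 7.85 in Calment1/4 females, against 8.21, 9.06 and 8.98 in CanS females, a difference of -0.59 (SE 0.27, adjusted p = 0.669). Calment1/4 replicate 1 lay above CanS replicate 1, so the groups overlapped, and over single arrays left out the difference ran from -0.86 (without CanS replicate 1) to -0.43 (without Calment1/4 replicate 3). With the ovary covariate it was -0.34. Obp56h, which has been tied to male mating behaviour, had 6.04, 5.98 and 6.31 in Calment1/4 females, against 6.56, 6.38 and 6.37 in CanS females. All its Calment1/4 arrays were lower (-0.33, SE 0.11, adjusted p = 0.437). Obp56d, made in antennae and taste organs, had 10.73, 10.53 and 10.44 in Calment1/4 females, against 10.13, 10.58 and 10.66 in CanS females, with overlapping groups and a difference of 0.11. The pair of seminal proteins that were bright in these females had slightly higher means in Calment1/4, with overlapping groups. Obp56g, which serves the mating plug in males, had 9.84, 9.26 and 9.44 in Calment1/4 females, against 9.18, 9.09 and 9.60 in CanS females. Obp56e had 9.40, 9.31 and 9.34 in Calment1/4 females, against 8.96, 8.95 and 9.59 in CanS females. Their differences were 0.22 (SE 0.18, adjusted p = 0.907) and 0.18 (SE 0.16, adjusted p = 0.927), and for Obp56e CanS replicate 3 was the highest array of all. Single arrays left out moved Obp56g within 0.060 (without Calment1/4 replicate 1) to 0.38 (without CanS replicate 3), and Obp56e within 0.070 (without CanS replicate 2) to 0.39 (without CanS replicate 3). With the ovary covariate Obp56g was at 0.42 (adjusted p = 0.0988) and Obp56e at 0.32. The floor-level Obp56f differed by -0.25 and Obp56i by -0.10, both with groups apart, and Obp56b and Obp56c overlapped.

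Among the remaining bright members, Obp57a, Obp57b and Obp57c are neighbours on 2R. Obp57a had 11.52, 11.32 and 11.17 in Calment1/4 females, against 11.17, 11.43 and 11.35 in CanS females, a difference of 0.020 whose 95% interval was -0.24 to 0.28. Obp57c had 10.13, 9.93 and 9.88 in Calment1/4 females, against 10.00, 10.12 and 10.30 in CanS females. Obp57b had 8.76, 8.54 and 8.59 in Calment1/4 females, against 8.69, 8.82 and 8.86 in CanS females. Obp57b and Obp57c each differed by -0.16 with overlapping groups. A probe set shared by Obp57d and Cpr57A, left aside above, had a mean of 7.72. It lay lower in Calment1/4 with groups apart (-0.35, adjusted p = 0.348 in limma). Which of these genes it measures cannot be told, and the other shared probe sets had overlapping groups. Obp44a, which is made in glia, had 10.25, 10.27 and 10.00 in Calment1/4 females, against 10.42, 10.09 and 10.33 in CanS females, and its groups overlapped (-0.11, SE 0.12, adjusted p = 0.949). Obp18a had 9.13, 8.68 and 8.59 in Calment1/4 females, against 8.51, 8.69 and 8.77 in CanS females, with overlapping groups and a difference of 0.14.

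The remaining dim members differed little. Obp58c varied little between arrays (SD 0.018 in Calment1/4 and 0.015 in CanS, n = 3), with 5.74, 5.77 and 5.77 in Calment1/4 females, against 5.78, 5.79 and 5.76 in CanS females. Obp8a (0.094), Obp47b (0.024) and Obp73a (-0.056) had overlapping groups. Over the 17 floor-level members the differences ran from -0.25 to 0.10, with 10 below 0 and 7 above. The share below 0 was 58.8%, close to the 57.5% of all floor-level probe sets. The groups lay apart for 3 of them (Obp56f, Obp56i and Obp93a), with differences of -0.25, -0.10 and -0.057. Over all probe sets of any level, 6.27% lay apart in this direction.

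Other genes of smell and taste were measured beside them: receptors and co-receptors, membrane proteins of sensilla, odorant-degrading enzymes and regulators. The list also holds lush, a5, a10, EbpIII, Phk-3 and several CheA and CheB genes. Of 45 measured, 14 were bright, 10 dim and 21 floor-level. In limma 0 rose, 0 fell and 45 did not pass, where 0.464% of all tested probe sets did. The median log2 difference of the 45 was -0.041, with 27 below 0, against 49.8% over all probe sets. An unadjusted p under 0.05 was reached by 2 of them, against 7.67% of all. The 2 were lz, a transcription factor needed for olfactory sensilla, at 0.35 (adjusted p = 0.223 in limma; floor-level), and a5, which encodes an antennal protein of another lipid-binding family, at -0.43 (adjusted p = 0.300). The log2 values of a5 were 6.45, 6.19 and 6.23 in Calment1/4, against 6.76, 6.50 and 6.88 in CanS, so the groups did not overlap. Those of lz did not overlap either, in the opposite direction. Over the 45 genes the groups lay apart for 1 gene lower in Calment1/4 and 2 higher, against 6.27% and 6.36% of all probe sets. lush, which encodes an odorant-binding protein without the Obp symbol, had 6.23, 5.96 and 6.04 in Calment1/4 females, against 5.99, 6.23 and 6.76 in CanS females, with overlapping groups (-0.25, 95% interval -0.67 to 0.16). Orco, the shared co-receptor of odorant receptors, was dim and differed by -0.032, with a 95% interval of -0.24 to 0.18.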

How the data were processed

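RNA from 6 samples of whole females was measured on 1 array each, 3 per stock, and samples were grouped by their titles. The authors deposited a log2 value for each probe set on each array, and their arrays share a scale. Per the submitters' processing notes, tools included affy 1.36.0, RMA and MAS5. Which of them gave these values is not stated in the sources used here. Detection calls were not used here.

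The table holds 18952 probe sets. The 183 AFFX controls were left out and 18769 tested. Symbols came from the platform's annotation and were matched through gene identifiers to RefSeq (Release 6 plus ISO1 MT), which also gave chromosome arms and gene order. No coordinates are given, since the array's annotation build is not stated. Subclasses and seminal proteins follow general knowledge of the family. Array medians lay between 5.84 and 5.91, and correlations between arrays were 0.991 to 0.998. Calment1/4 replicate 1 correlated best with CanS replicate 3 (0.995). The number of arrays limits the precision.

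The 2-sided comparison used limma 3.58.1 (lmFit, then eBayes; genotype alone in the model) under R 4.3.3, with Benjamini-Hochberg adjustment over all 18769 probe sets. Intervals at 95% are not adjusted. On simulated data for this comparison (20 runs, 200 of 18769 probe sets changed) the step found 39.2% of the genes shifted by 0.5 (log2), 88% of those shifted by 1 and 98.4% of those shifted by 2, while 4.09% of calls were false. The simulated noise was normal and independent between probe sets and arrays. In the real arrays many genes deviated together, so these rates need not hold for them. Figures were drawn with matplotlib 3.10.9.

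Every member is accounted for. By the rule for named genes, values per array are given for bright members and for members with groups apart that differ by at least 0.5. Those of Obp83ef, Obp84a, Obp58c and Obp99b were added after they were seen. From the other olfactory genes the 2 of smallest p are given, and lush and Orco were added. The members and lists were chosen with earlier results of these data known. Alternatives were other normalizations, a filter on dim probe sets, other variance models and weights, other probe set rules, a replicate block, an ovary covariate made from the eggshell and ovary markers, and leaving out arrays.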

Additional observations from a re-analysis of the deposited data

How the results depend on the processing

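The number of members past an adjusted p of 0.05 in limma was 0 with all 6 arrays (9 at an unadjusted p under 0.05). It was 1 with centring on medians, 1 with trend and robust on and 1 without Calment1/4 replicate 1 and CanS replicate 3 together (Obp83cd each time), 2 with the ovary covariate (Obp83cd and Obp83ef), 3 with array weights, and 3 at an adjusted p of 0.10. Leaving out single arrays gave 0 to 2. At a threshold of 0.01, with repeated quantile normalization, without the dimmest 33% of probe sets, with probe sets averaged per gene, with all 50 probe sets and with 1 probe set per gene it was 0. With the replicate block it was also 0 (30 of all probe sets passed, against 87 without it), and the adjusted p of Obp83g, Obp83cd and Obp83ef was 0.307 to 0.333. The titles do not say whether the numbers pair the arrays. Deviations of same-numbered arrays correlated at -0.29, 0.20 and -0.43, and no array correlated best with its own number. The highest value was 0.54, between Calment1/4 replicate 1 and CanS replicate 3. With 3 arrays per group such a shared deviation can mask another, so these values cannot exclude a pairing. The cause of the changes in the number of members past the threshold was not tested.

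The median over the members ran from -0.12 (without the dimmest 33% of probe sets) to -0.056, and the count of other olfactory genes past the threshold was 0 under each alternative. Bright members numbered 30 from the 33rd percentile and 12 from the 75th. Small differences changed sign. With array weights Obp57a was at -0.036 and Obp19c at 0.34. Without Calment1/4 replicate 1 and CanS replicate 3 together Obp57a was at -0.055, Obp19c at 0.12 and Obp84a at 0.012. Over single arrays left out, Obp19c ran from -0.37 to 0.42, Obp83b from -0.10 to 0.24, Obp57a from -0.071 to 0.10, Obp56d from -0.056 to 0.21, Obp18a from -0.021 to 0.25, Obp99d from -0.0093 to 0.20, Obp73a from -0.15 to 0.020 and Obp47b from -0.013 to 0.061. None of these was past the threshold. Signal over background was not examined here, which limits what can be said of the 17 floor-level members.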
